A study of Mus musculus with 9 samples.

Results

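The genes described here are 8 genes that mark Kupffer cells, the resident macrophages of the liver: Clec4f, Timd4, Vsig4, Cd5l, Marco, Cd163, Folr2, and Adgre1. They were taken by name, all 8 were present among the 23183 gene symbols of the deposited tables, and all 8 were above 0 in every liver. Liver RNA was sequenced from 9 male C57BL/6J mice at postnatal day 100, with 1 library per mouse. The ND group (mice 6, 7, and 9) ate a normal diet with 14% fat for 10 weeks, and the HFD group (mice 1, 2, and 3) ate a high-fat diet with 60% fat for the same time to induce obesity. The PRF 50 group (mice 3, 9, and 10) ate the high-fat diet for 10 weeks and received 50 mg/kg/day of PRF by mouth, in carboxymethyl cellulose, during the last 5 weeks. PRF is a hexane fraction of a leaf extract of Jinkyool, a citrus tree, and is rich in polymethoxyflavones (tangeretin, nobiletin, and sinensetin), so a mixture and not a single compound was given. Whether the HFD and ND mice were given carboxymethyl cellulose is not stated in the sources used here, so the PRF 50 comparisons may differ in the vehicle and its dosing as well as in PRF. A mouse number names an animal and carries no pairing across groups. Values are log2(FPKM + 1), where FPKM counts fragments per kilobase of transcript after scaling to library size. Read counts were not used, so absolute depth is unknown. From the most common ratio between low values, the depths of the livers were 0.963 to 1.60 times that of HFD mouse 1, and the groups overlapped in depth.

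Kupffer cells line the liver sinusoids and take up microbes, immune complexes, aged blood cells, and apoptotic cells from portal and arterial blood. Most are seeded before birth and renew themselves in the tissue, and their identity depends on signals from endothelial, stellate, and liver parenchymal cells together with transcription factors such as PU.1, MAF-family proteins, ZEB2, and the nuclear receptor LXR-alpha (Nr1h3). When resident cells are lost, monocytes can enter the niche and take on most of the same genes, with Timd4 among the slowest to appear.

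The genes lie on different chromosomes of GRCm38 with the exception of Clec4f and Cd163, which are both on chromosome 6. RefSeq promoter windows (GRCm38.p6), 300 bases long and ending 50 bases after the start of transcription, were found for 7 of the 8 genes. Folr2 had 2 windows and Adgre1 had none, so 8 windows were searched on both strands for 5 short motifs, none of which contains another. TGCTGA, a core motif of MAF-family factors, was present in 6 of the 8 windows and in 19.5% of all 32851 promoter windows of this length. GAGGAA, a motif of PU.1-type ETS factors, was present in 3 of the 8 windows and in 28.3% of all windows. AGGTCA, the core motif of many nuclear receptors, was present in 2 of the 8 windows and in 16.3% of all windows. CACCTG, an E-box bound by ZEB-type factors, was present in 1 of the 8 windows (20.2% of all windows), and the TATA box TATAAA was present in 0 of the 8 (13.6% of all windows). The windows of Clec4f (chr6:83656067-83656366, minus strand), Timd4 (chr11:46810549-46810848, plus strand), Vsig4 (chrX:96293389-96293688, minus strand), and Cd5l (chr3:87357631-87357930, plus strand) are printed 5′ to 3′ on the strand of each gene, because the levels of these genes moved together across the livers. Capitals mark matches to the motifs or to their reverse complements, and a match describes the letters only.
Clec4f: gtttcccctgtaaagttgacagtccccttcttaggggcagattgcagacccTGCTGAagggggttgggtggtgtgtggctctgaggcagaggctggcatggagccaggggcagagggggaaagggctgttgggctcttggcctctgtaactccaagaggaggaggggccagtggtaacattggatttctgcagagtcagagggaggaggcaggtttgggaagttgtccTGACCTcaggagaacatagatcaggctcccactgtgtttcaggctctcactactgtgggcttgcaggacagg
Timd4: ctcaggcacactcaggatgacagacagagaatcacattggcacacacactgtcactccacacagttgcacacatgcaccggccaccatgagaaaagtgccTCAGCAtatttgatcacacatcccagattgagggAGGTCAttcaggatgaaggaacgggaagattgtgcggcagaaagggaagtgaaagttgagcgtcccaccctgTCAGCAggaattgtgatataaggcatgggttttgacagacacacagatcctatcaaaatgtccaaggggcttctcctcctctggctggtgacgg
Vsig4: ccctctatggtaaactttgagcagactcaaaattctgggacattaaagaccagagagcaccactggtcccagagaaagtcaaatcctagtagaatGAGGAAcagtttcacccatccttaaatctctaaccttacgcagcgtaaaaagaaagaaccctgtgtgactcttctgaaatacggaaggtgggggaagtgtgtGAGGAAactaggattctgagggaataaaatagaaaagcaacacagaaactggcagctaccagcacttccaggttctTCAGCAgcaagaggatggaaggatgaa
Cd5l: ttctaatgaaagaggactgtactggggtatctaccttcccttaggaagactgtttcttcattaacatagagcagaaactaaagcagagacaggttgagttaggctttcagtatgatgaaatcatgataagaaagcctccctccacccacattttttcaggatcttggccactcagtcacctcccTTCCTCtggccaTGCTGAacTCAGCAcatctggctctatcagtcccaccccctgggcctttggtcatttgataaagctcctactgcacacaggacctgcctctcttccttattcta
The Timd4 window held TGCTGA at 2 positions and AGGTCA at 1, and the Clec4f window held 1 match of each. The Vsig4 window held GAGGAA at 2 positions and TGCTGA at 1, while the Cd5l window held TGCTGA at 2 positions and GAGGAA at 1. None of the motifs was found in the Cd163 window.

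On the high-fat diet with PRF, all 8 genes had higher levels than on the high-fat diet alone, by 1.21 (Cd163) to 2.61 (Marco) on the log2(FPKM + 1) scale. For 6 of the 8 (Clec4f, Timd4, Vsig4, Cd5l, Cd163, and Adgre1) the difference passed a limma adjusted p of 0.05, and 1.43% of the 10084 tested genes were called higher in this comparison. The levels of the PRF 50 mice lay above those of all HFD mice for 8 of the 8 genes, against 10.9% of all tested genes. The median log2 fold change was 1.45 over the 8 genes and -0.02 over all tested genes. In these samples of whole tissue, more cells of a type and more RNA per cell cannot be told apart. All 8 genes were chosen with earlier results of these data known, so the direction of none of them is independent evidence. Cd5l, Clec4f, Marco, and Vsig4 also belong to the differentially expressed genes that the study selected in these same livers. All 8 genes passed the minimum of 1 FPKM in each comparison, and their mean was above 1 FPKM in each of the 3 groups taken alone, so none entered only through the group in which it was high.

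**Figure D1:**
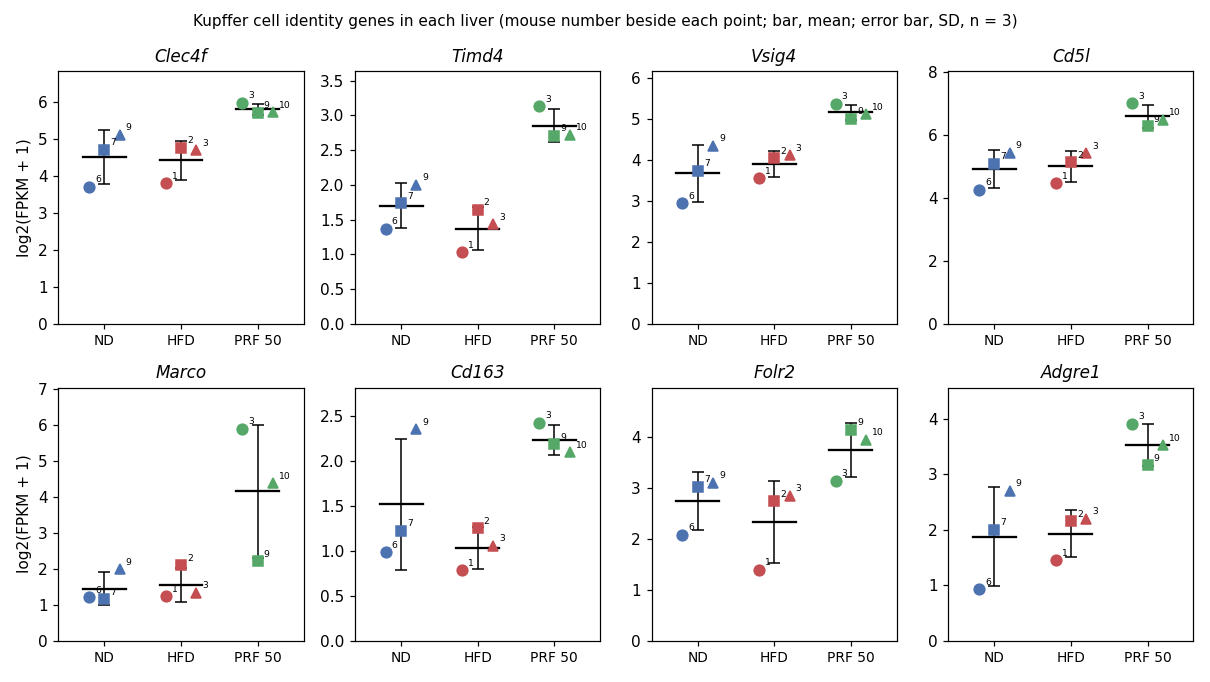
Level of each Kupffer cell gene in each liver, as log2(FPKM + 1), for the ND, HFD, and PRF 50 groups. Points are single mice with the mouse number beside them, horizontal bars are group means, and error bars are the SD (n = 3). In every panel the PRF 50 points lie above the HFD points, while in the Cd163 panel ND mouse 9 (2.35) lies among the PRF 50 mice, and in the Marco panel the PRF 50 mice spread from 2.21 to 5.90.

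Clec4f encodes a galactose-binding C-type lectin that, in the mouse liver, is made by Kupffer cells. Its levels on the log2(FPKM + 1) scale were 3.80, 4.75, and 4.69 in HFD mice 1, 2, and 3, 5.97, 5.71, and 5.72 in PRF 50 mice 3, 9, and 10, and 3.70, 4.71, and 5.11 in ND mice 6, 7, and 9. The PRF 50 livers were close together and above all others, and the ND and HFD livers overlapped, each of these groups having 1 liver (ND mouse 6 and HFD mouse 1) well below the rest. The log2 fold change of PRF 50 vs. HFD was 1.38 (standard error 0.25, limma adjusted p = 0.0336), and the mean level was 54.8 ± 5.75 FPKM in the PRF 50 group against 21.2 ± 7.20 FPKM in the HFD group (SD, n = 3).

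Timd4 encodes TIM-4, a receptor for phosphatidylserine on apoptotic cells that is typical of long-resident Kupffer cells. Its levels on the log2(FPKM + 1) scale were 1.03, 1.64, and 1.43 in HFD mice 1, 2, and 3, 3.13, 2.71, and 2.72 in PRF 50 mice 3, 9, and 10, and 1.37, 1.73, and 2.0 in ND mice 6, 7, and 9. The PRF 50 livers lay above all other livers, and the ND and HFD livers overlapped. The log2 fold change of PRF 50 vs. HFD was 1.49 (standard error 0.19, limma adjusted p = 0.0150). Mean levels were 6.30 ± 1.27 FPKM in the PRF 50 group and 1.62 ± 0.537 FPKM in the HFD group (SD, n = 3), a ratio of 3.90, which the log2(FPKM + 1) scale understates because the gene is low.

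Vsig4 encodes CRIg, the complement receptor by which Kupffer cells bind particles coated with C3 fragments. Its levels on the log2(FPKM + 1) scale were 3.54, 4.03, and 4.11 in HFD mice 1, 2, and 3, 5.36, 5.01, and 5.11 in PRF 50 mice 3, 9, and 10, and 2.94, 3.73, and 4.34 in ND mice 6, 7, and 9. The PRF 50 and HFD groups were each narrow and did not overlap, whereas the ND livers spread on either side of the HFD livers. In PRF 50 vs. HFD the log2 fold change of Vsig4 was 1.27 (standard error 0.17, limma adjusted p = 0.0182).

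Marco and Cd163 encode scavenger receptors, Marco for bacteria and particles and Cd163 for complexes of haemoglobin with haptoglobin. Levels of Marco on the log2(FPKM + 1) scale were 1.23, 2.10, and 1.33 in HFD mice 1, 2, and 3, 5.90, 2.21, and 4.38 in PRF 50 mice 3, 9, and 10, and 1.21, 1.14, and 1.98 in ND mice 6, 7, and 9. The PRF 50 livers were far apart from each other, and the lowest of them, mouse 9, was barely above HFD mouse 2. Marco had the largest log2 fold change of the 8 genes, 2.61, but also the largest standard error, 0.82, and the difference did not pass the test (limma adjusted p = 0.135). The study, which listed Marco, used a p under 0.05 and a fold above 2 and stated no adjustment of p. The unadjusted limma p of Marco here was 0.0144, so the thresholds are unlike. In FPKM, the PRF 50 mean of 27.4 ± 28.3 (SD, n = 3) was made up largely of mouse 3 with 58.6 FPKM. Without PRF 50 mouse 3 the log2 fold change was 1.74 (limma adjusted p = 0.233), and without PRF 50 mouse 9 it was 3.59 and passed (limma adjusted p = 0.0288, range over the alternatives 0.0288 to 0.296).

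Levels of Cd163 on the log2(FPKM + 1) scale were 0.78, 1.25, and 1.06 in HFD mice 1, 2, and 3, 2.42, 2.19, and 2.10 in PRF 50 mice 3, 9, and 10, and 0.98, 1.22, and 2.35 in ND mice 6, 7, and 9. The HFD and PRF 50 livers did not overlap, and ND mouse 9 stood with the PRF 50 livers, apart from the other ND mice. The log2 fold change of PRF 50 vs. HFD was 1.21 (standard error 0.15, limma adjusted p = 0.0150). Cd163 had the lowest mean level of the 8 genes over the 9 livers, 2.31 FPKM, and only 17.6% of the genes that averaged 1 FPKM or more were at or below it.

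Cd5l encodes AIM, a protein that tissue macrophages secrete and that circulates bound to IgM. Its levels on the log2(FPKM + 1) scale were 4.47, 5.14, and 5.43 in HFD mice 1, 2, and 3, 7.02, 6.29, and 6.49 in PRF 50 mice 3, 9, and 10, and 4.26, 5.09, and 5.44 in ND mice 6, 7, and 9. The ND and HFD groups covered nearly the same range, and all PRF 50 livers lay above it. Between the PRF 50 and HFD groups, Cd5l differed by 1.59 on the log2 scale (standard error 0.27, limma adjusted p = 0.0322).

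Folr2 encodes folate receptor beta, a surface protein of resident macrophages in many tissues. Its levels on the log2(FPKM + 1) scale were 1.39, 2.73, and 2.84 in HFD mice 1, 2, and 3, 3.13, 4.14, and 3.94 in PRF 50 mice 3, 9, and 10, and 2.08, 3.02, and 3.10 in ND mice 6, 7, and 9. The order within the PRF 50 group was unlike that of Marco, since mouse 3 was the lowest for Folr2 and the highest for each of the other 7 genes. PRF 50 mouse 3 was only slightly above ND mouse 9. The log2 fold change of PRF 50 vs. HFD, 1.42 (standard error 0.42), did not pass the test (limma adjusted p = 0.117).

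Adgre1 encodes F4/80, an adhesion receptor found on most mouse macrophages and strongly on Kupffer cells. Its levels on the log2(FPKM + 1) scale were 1.45, 2.15, and 2.19 in HFD mice 1, 2, and 3, 3.91, 3.16, and 3.52 in PRF 50 mice 3, 9, and 10, and 0.92, 1.99, and 2.70 in ND mice 6, 7, and 9. The PRF 50 livers were above all other livers, and the ND livers were wider apart than the HFD livers and overlapped them. The log2 fold change of PRF 50 vs. HFD was 1.60 (standard error 0.25, limma adjusted p = 0.0263).

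The count of 6 genes depended on single livers. It was the same 6 without HFD mouse 1, and 6 without PRF 50 mouse 9, where Clec4f was lost (limma adjusted p = 0.0667) and Marco gained. It was 3 without PRF 50 mouse 10 (Timd4, Vsig4, and Cd163), 2 without HFD mouse 2 (Timd4 and Cd163), and 0 without HFD mouse 3 or without PRF 50 mouse 3. Clec4f thus kept its call in 1 of the 6 fits with a mouse left out. With all 9 mice in 1 fit, 2 of the 8 genes (Timd4 and Cd5l) were called. Over all alternatives run, including another pseudocount, minimum level, normalization, and variance model, the log2 fold changes of the 6 genes stayed between 1.08 and 1.93 and their limma adjusted p-values between 0.00762 and 0.0955. In the 6 fits with a mouse left out, the calls of all genes fell from 362 (144 higher and 218 lower in the PRF 50 group). They were 15 without HFD mouse 3, 40 without PRF 50 mouse 3, and at most 242. With all 9 mice in 1 fit, where the Kupffer cell genes called were 2 and not 6, all genes called numbered 367.

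The high-fat diet without PRF was set against the normal diet in HFD vs. ND. None of the 8 was called by limma (0 of 8, against 1.33% of the 9978 tested genes in either direction), and 0 of the 8 had an unadjusted p under 0.05, against 1504 of all tested genes. Log2 fold changes ran from -0.49 (Cd163) to 0.23 (Vsig4), with 4 genes on each side of 0 and a median of -0.02. The value of Cd163 was -0.07 without ND mouse 9 and -0.76 without ND mouse 6. The 95% confidence intervals were wide, from -0.81 to 0.15 for Timd4, from -0.97 to 0.78 for Clec4f, and from -0.90 to 1.02 for Adgre1. They reached furthest down for Folr2 (-1.37 to 0.54) and Cd163 (-1.25 to 0.28) and furthest up for Adgre1. For Clec4f, Vsig4, Cd5l, Marco, Folr2, and Adgre1 the sign turned when a single mouse was left out.

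The PRF 50 group was also set against the ND group, which shares the PRF 50 mice with the comparison above and the ND mice with HFD vs. ND. All 8 log2 fold changes were positive, from 0.72 (Cd163) to 2.72 (Marco) with a median of 1.39, and -0.03 was the median of all 10051 tested genes. That of Cd163 was 0.45 without ND mouse 6 and 1.13 without ND mouse 9. None of the 8 passed the limma adjusted p of 0.05 (0 of 8, against 0.458% of the tested genes in either direction), while 7 of the 8 had an unadjusted p under 0.05, against 1256 of all tested genes. For 7 of the 8 genes the PRF 50 levels lay above all ND levels, against 8.19% of the tested genes, with Cd163 as the exception. Timd4 had the smallest adjusted p (log2 fold change 1.15, standard error 0.19, limma adjusted p = 0.0602), followed by Cd5l (1.67, standard error 0.31, limma adjusted p = 0.0749). Without ND mouse 9, which had the highest ND level of all 8 genes, Timd4 (limma adjusted p = 0.0414), Vsig4 (0.0319), and Cd163 (0.0377) were called. Marco was called without PRF 50 mouse 9 (limma adjusted p = 0.0415), and Timd4 was called with all 9 mice in 1 fit (limma adjusted p = 0.0382). Over the alternatives, the adjusted p-values ran from 0.0382 to 0.191 for Timd4, 0.0319 to 0.268 for Vsig4, 0.0377 to 0.663 for Cd163, and 0.0415 to 0.444 for Marco.

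**Figure D2:**
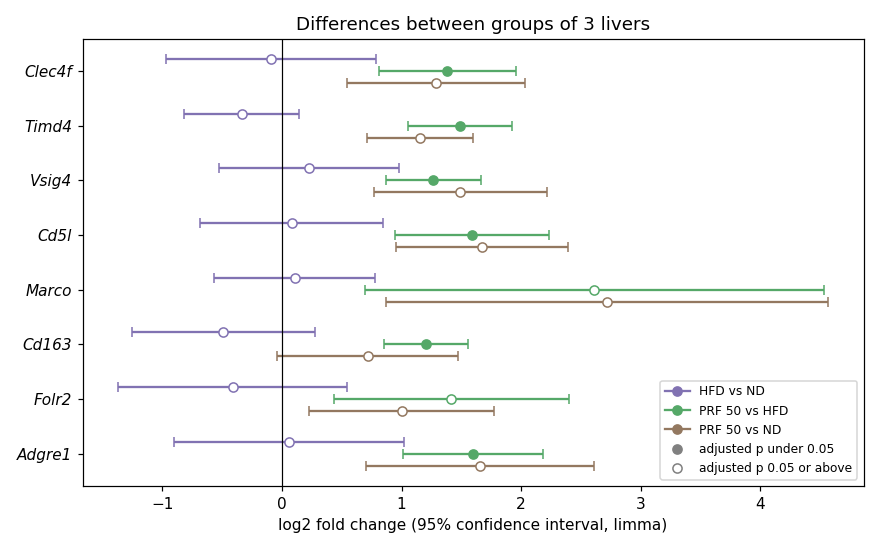
Log2 fold change of each Kupffer cell gene in HFD vs. ND, PRF 50 vs. HFD, and PRF 50 vs. ND, on the log2(FPKM + 1) scale, with 95% confidence intervals from limma. Filled points passed an adjusted p of 0.05 and open points did not. The HFD vs. ND intervals all include 0, and in both PRF 50 comparisons the interval of Marco is the widest.

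In order of mean level over the 9 livers the genes were Cd5l (54.1 FPKM), Clec4f (33.2 FPKM), Vsig4 (20.6 FPKM), Marco (10.4 FPKM), Folr2 (7.77 FPKM), Adgre1 (5.61 FPKM), Timd4 (3.41 FPKM), and Cd163 (2.31 FPKM). Cd5l, Clec4f, and Vsig4 kept the top places in each group. In the HFD group the means of these top genes were 32.5 ± 10.6, 21.2 ± 7.20, and 14.1 ± 3.01 FPKM (SD, n = 3). Group means of Cd5l and Clec4f, and of Clec4f and Vsig4, differed there by about the spread between mice. The means of Marco, Timd4, and Cd163, 2.04 ± 1.08, 1.62 ± 0.537, and 1.06 ± 0.330 FPKM, were not separated beyond it. Within each of the 9 livers, however, Cd5l was above Clec4f and Clec4f above Vsig4. In each HFD liver Cd163 was below Timd4 and Marco, and Marco was above Timd4 except in HFD mouse 3. Marco took place 8 in the ND group (1.82 ± 0.981 FPKM), place 6 in the HFD group, and place 4 in the PRF 50 group, where its SD exceeded its mean. Marco also varied the most over the livers, 48.5-fold between the lowest and the highest FPKM, whereas Clec4f varied 5.13-fold.

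The mean of the 8 genes on the log2(FPKM + 1) scale was 2.18, 2.83, and 3.38 in ND mice 6, 7, and 9, 2.21, 2.97, and 2.88 in HFD mice 1, 2, and 3, and 4.61, 3.93, and 4.25 in PRF 50 mice 3, 9, and 10. The lowest livers, ND mouse 6 and HFD mouse 1, were alike although their diets differed, and ND mouse 9 was the highest liver outside the PRF 50 group. Within groups the genes went up and down together from mouse to mouse. After the group means were subtracted, the median Pearson's r over the 28 pairs of genes was 0.78, from -0.25 for Marco and Folr2 to 0.99 for Vsig4 and Adgre1. These correlations are descriptions over 9 livers that share a scaling, and the r values before subtraction (median 0.87) also contain the distance of the PRF 50 group from the others.

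Timd4 was set against Clec4f within each liver, since Clec4f is made by Kupffer cells in general and Timd4 mainly by the long-resident ones. On the log2(FPKM + 1) scale, Timd4 minus Clec4f was -2.77, -3.12, and -3.25 in HFD mice 1, 2, and 3, -2.83, -3.00, and -3.00 in PRF 50 mice 3, 9, and 10, and -2.33, -2.97, and -3.11 in ND mice 6, 7, and 9. The 3 groups overlapped. The difference between groups was 0.10 for PRF 50 vs. HFD (two-sided exact permutation test, p = 0.5, adjusted p = 0.75), -0.24 for HFD vs. ND (exact p = 0.5, adjusted p = 0.75), and -0.14 for PRF 50 vs. ND (exact p = 0.8, adjusted p = 0.8), with p adjusted over the 3 comparisons, and 3 mice against 3 cannot give a p below 0.1. With 1 mouse left out, the difference ran from 0.00003 (without HFD mouse 3) to 0.24 (without HFD mouse 1) for PRF 50 vs. HFD, from -0.39 (without ND mouse 9) to -0.005 (without ND mouse 6) for HFD vs. ND, and from -0.29 (without ND mouse 9) to 0.098 (without ND mouse 6, the 1 fit in which the sign turned) for PRF 50 vs. ND. This measure depends on the pseudocount because Timd4 is low. In FPKM, Timd4 was 8.06%, 8.11%, and 6.86% of Clec4f in HFD mice 1, 2, and 3, 12.6%, 10.8%, and 10.8% in PRF 50 mice 3, 9, and 10, and 13.2%, 9.26%, and 8.94% in ND mice 6, 7, and 9. On that scale the PRF 50 livers lay above the HFD livers, and the ND livers overlapped the PRF 50 livers.

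Over the 9 livers, the genes outside the list whose pattern was most like the mean of the 8 standardized genes were Csf1r (Pearson's r = 0.994), Sdc3 (0.993), Cfp (0.991), Lcp2 (0.991), Adgre5 (0.989), Cybb (0.987), Adgre4 (0.986), Epsti1 (0.983), C1qc (0.982), and Fyb (0.981), out of 10040 genes averaging 1 FPKM or more. After the group means were subtracted, r was 0.976 for Csf1r, 0.986 for Sdc3, and between 0.926 and 0.970 for the other genes named. Csf1r encodes the receptor for the macrophage growth factor CSF1, Cfp encodes properdin of the complement system, and Cybb encodes a subunit of the phagocyte NADPH oxidase. For single genes, the nearest gene was Csf1r for Clec4f (r = 0.992), Lgmn for Timd4 (0.987), Cfp for Cd5l (0.993), Neurl3 for Marco (0.958), Ccl24 for Cd163 (0.952), and Ddhd1 for Folr2 (0.980), while Vsig4 and Adgre1 were nearest to each other (0.991).

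Of 19 other genes known from Kupffer cells, such as complement C1q, Spic, and Fcna, 19 were tested in PRF 50 vs. HFD, and 8 rose and 1 fell (limma adjusted p under 0.05, against 3.59% of all tested genes called in either direction). The median log2 fold change was 0.84. The syndecan Sdc3 rose most, from 2.98 ± 0.41 to 4.46 ± 0.28 (SD, n = 3) on the log2(FPKM + 1) scale (log2 fold change 1.48, limma adjusted p = 0.0247), followed by C1qb, a chain of C1q (1.45, limma adjusted p = 0.0237). Hpgd, which encodes a prostaglandin-degrading enzyme, fell (-0.73, limma adjusted p = 0.0276). In HFD vs. ND, 1 of 17 tested genes, the transcription regulator Id3, fell (-1.19, limma adjusted p = 0.0116). In PRF 50 vs. ND 0 of 18 passed, although 15 of the 18 had an unadjusted limma p under 0.05, against 1256 of all 10051 tested genes. Of the 15, 12 were higher and 3 lower (Hpgd, Id3, and Id1) in the PRF 50 group. The smallest p-values there were those of Wfdc17 (log2 fold change 1.85) and C1qb (1.45).

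Among 9 transcription factors of macrophages, 8 were tested in PRF 50 vs. HFD, and 2 rose, Spi1 (encoding PU.1, log2 fold change 1.09, limma adjusted p = 0.0251) and Irf8 (0.81, limma adjusted p = 0.0322). Spi1 was also the 1 of 9 that passed in PRF 50 vs. ND (1.14, limma adjusted p = 0.0491), and 0 of 8 passed in HFD vs. ND, where Cebpa (-0.55) had an unadjusted limma p under 0.05. Of 16 niche signals and receptors, 12 were tested in PRF 50 vs. HFD, and 1, Csf1r, rose (1.40, limma adjusted p = 0.0256). Csf1, which encodes a ligand of this receptor, had a log2 fold change of 0.42 (limma adjusted p = 0.231). In HFD vs. ND and in PRF 50 vs. ND 0 of 11 passed, with unadjusted p-values under 0.05 for 0 and 2 genes. The smallest p-values were those of Notch1 (0.22) and Tgfbr2 (-0.18) in HFD vs. ND, and of Csf1r (1.33) and Csf1 (0.57) in PRF 50 vs. ND.

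Receptors and bridging proteins for clearance of cells and particles numbered 19, of which 18 were tested in PRF 50 vs. HFD, and 4 rose and 1 fell. Those that rose most were the Fc receptor gene Fcgr3 (log2 fold change 1.02, limma adjusted p = 0.0411) and Axl, a receptor for bridging proteins on apoptotic cells (0.98, limma adjusted p = 0.0305). Cd36, a fatty acid and scavenger receptor that hepatocytes also make, fell (-2.31, limma adjusted p = 0.0249), as it did in PRF 50 vs. ND (-0.78, limma adjusted p = 0.0229), where it was the 1 of 18 that passed. In HFD vs. ND 0 of 17 passed and 2 had an unadjusted limma p under 0.05, Cd36 (1.53) and Gas6 (0.64). Of 12 genes of haem and iron handling, which borders on the role of Cd163, 1 rose in PRF 50 vs. HFD, the phagosomal metal transporter Slc11a1 (1.05, limma adjusted p = 0.0365). An unadjusted limma p under 0.05 was found there for 6 of the 12, against 2039 of all 10084 tested genes. Slc11a1 and Slc40a1 (0.63) were higher, and Tfrc (-0.62), Fth1 (-0.50), Ftl1 (-0.42), and Blvrb (-0.37) were lower. In the other comparisons 0 of 12 passed and 4 had an unadjusted limma p under 0.05 in each. All tested genes with such a p numbered 1504 of 9978 in HFD vs. ND and 1256 of 10051 in PRF 50 vs. ND. The smallest p-values were those of Tfrc (0.67) and Hamp (-2.31) in HFD vs. ND and of Slc11a1 (1.21) and Hmox1 (1.72) in PRF 50 vs. ND. Of 7 genes of folate handling, listed because of Folr2, 5 were tested and 0 passed in each comparison, with unadjusted limma p-values under 0.05 for 1, 1, and 0 genes in HFD vs. ND, PRF 50 vs. HFD, and PRF 50 vs. ND. Fpgs had the smallest p in HFD vs. ND (0.41) and in PRF 50 vs. HFD (-0.53), where Folr2 itself had 1.42.

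**Figure D3:**
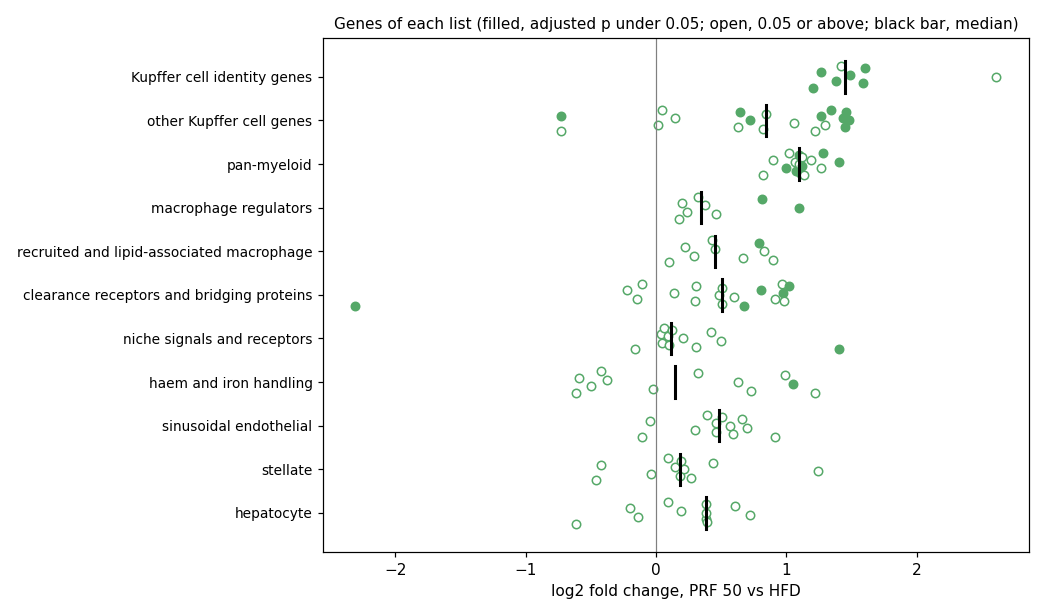
Log2 fold change in PRF 50 vs. HFD of each tested gene in the Kupffer cell list and in 10 other lists, on the log2(FPKM + 1) scale. Filled points passed a limma adjusted p of 0.05, open points did not, vertical position within a list has no meaning, and black bars are medians. The medians were 1.45 for the 8 Kupffer cell genes, 1.10 for pan-myeloid genes, 0.84 for other Kupffer cell genes, and between 0.11 and 0.51 for the other lists drawn. Lists with 5 or fewer tested genes are not drawn, and their medians were 1.63 for neutrophil genes (2 tested), 0.29 for cholangiocyte genes (1 tested), 0.27 for erythroid genes (4 tested), and -0.11 for folate handling (5 tested).

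Markers of other cell types were read beside the Kupffer cell genes. Of 17 pan-myeloid genes, which monocytes, macrophages, and neutrophils share, 16 were tested in PRF 50 vs. HFD and 7 rose, led by Csf1r and Mpeg1 (log2 fold change 1.28, limma adjusted p = 0.0469). The median over the 16 was 1.10, and in PRF 50 vs. ND, where 1 of 16, Spi1, rose, it was 1.15. All 16 had an unadjusted limma p under 0.05 in both PRF 50 comparisons (against 2039 of all 10084 tested genes in PRF 50 vs. HFD and 1256 of 10051 in PRF 50 vs. ND), and the PRF 50 levels lay above all HFD levels for 15 of the 16 and above all ND levels for 16 of the 16. In HFD vs. ND 0 of 15 passed and 0 had an unadjusted limma p under 0.05, with Lyz2 (0.39) and Cd68 (0.22) having the smallest p. The summed level of the pan-myeloid genes was 102, 148, and 195 FPKM in ND mice 6, 7, and 9, 119, 181, and 175 FPKM in HFD mice 1, 2, and 3, and 546, 292, and 320 FPKM in PRF 50 mice 3, 9, and 10, with Lyz2 the most abundant and none listed at 0. Csf1r and Spi1 are in this list as well as in those above. The 8 Kupffer cell genes together amounted to 44.1%, 57.7%, and 60.7% of that sum in the ND mice, 43.0%, 50.5%, and 55.4% in the HFD mice, and 59.2%, 67.5%, and 71.3% in the PRF 50 mice. On this measure the PRF 50 livers lay above the HFD livers and overlapped the ND livers. The part of the pan-myeloid genes in the result was not tested.

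Of 16 genes of recruited and lipid-associated macrophages, 9 were tested in PRF 50 vs. HFD and 1 rose, Clec7a (log2 fold change 0.79, limma adjusted p = 0.0322). All 9 log2 fold changes were positive, with a median of 0.45. An unadjusted limma p under 0.05 was found for 4 genes, Clec7a, Plac8 (0.90), Lgals3 (0.67), and Ly6c2 (0.82), against 2039 of all 10084 tested genes. In HFD vs. ND 1 of 8 fell, Cd9 (-0.99, limma adjusted p = 0.0309). Cd9 had the 1 negative log2 fold change there, 7 were positive, and the median was 0.21. The other genes of the list were too low to be tested. Mean log2(FPKM + 1) of Mmp12 was 0.05 ± 0.02 in ND mice and 0.82 ± 0.07 in HFD mice (SD, n = 3). That of Trem2 was 0.24 ± 0.26 and 0.76 ± 0.29. Of these untested genes, Ly6c2 alone had an HFD mean below its ND mean (0.82 against 0.87). In PRF 50 vs. ND 0 of 9 passed, with the smallest p-values for Clec7a (1.01) and Plac8 (1.13). There 6 genes of the list had an unadjusted limma p under 0.05. Their summed level was 195, 206, and 214 FPKM in the ND mice, 226, 229, and 214 FPKM in the HFD mice, and 314, 305, and 227 FPKM in PRF 50 mice 3, 9, and 10, with Fn1, which hepatocytes also make, the most abundant. Their part in the result was not tested.

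The neutrophil list had 8 of its 9 genes in the tables, 2 of which were tested, and 0 passed in each comparison. Its summed level was 57.8 and 19.8 FPKM in PRF 50 mice 3 and 9 but 3.73 FPKM in PRF 50 mouse 10, and it was 3.17 to 9.36 FPKM in the other livers. S100a8 was the most abundant gene, with log2 fold changes of 1.49 in PRF 50 vs. HFD, 0.09 in HFD vs. ND, and 1.58 in PRF 50 vs. ND, and S100a9 had 1.77, -0.80, and 0.97. The unadjusted limma p was under 0.05 for 1 of the 2 genes in PRF 50 vs. HFD and for 0 in the others, and Mpo was listed at 0 in 7 of the 9 livers. PRF 50 mouse 3 had the highest neutrophil sum and the highest level of 7 of the 8 Kupffer cell genes. PRF 50 mouse 10 had Kupffer cell genes above all HFD livers and a neutrophil sum within the range of the ND and HFD livers. The part of the neutrophil genes in the result was not tested.

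Sinusoidal endothelial markers (12 of 12 tested) gave 0 calls in each comparison, with unadjusted limma p-values under 0.05 for 5 genes in HFD vs. ND, 1 in PRF 50 vs. HFD, and 0 in PRF 50 vs. ND. The 5 were all lower in the HFD group, and 1504 of all 9978 tested genes had such a p there. In HFD vs. ND 11 of the 12 log2 fold changes were negative (median -0.71). In PRF 50 vs. HFD 10 were positive (median 0.48), and in PRF 50 vs. ND 9 were negative (median -0.20). The summed level of the 12 markers was 86.7, 110, and 145 FPKM in ND mice 6, 7, and 9, 34.2, 73.9, and 103 FPKM in HFD mice 1, 2, and 3, and 84.5, 80.7, and 140 FPKM in PRF 50 mice 3, 9, and 10, with Clec4g the most abundant. HFD mouse 1, 1 of the 2 lowest livers for the Kupffer cell genes, was the lowest for these markers too, and none was listed at 0. The smallest p-values were those of Gpr182 (log2 fold change -0.68) and Bmp2 (-0.79) in HFD vs. ND, Mrc1 (0.91) and Gpr182 (0.46) in PRF 50 vs. HFD, and Stab2 (-0.45) and Fcgr2b (-0.28) in PRF 50 vs. ND. The part of these markers in the result was not tested.

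Stellate cell markers (11 genes) gave 0 calls in each comparison. Their summed level was 112, 131, and 174 FPKM in the ND mice, 157, 184, and 143 FPKM in the HFD mice, and 137, 203, and 232 FPKM in the PRF 50 mice, with Dcn the most abundant and none listed at 0, and the groups overlapped. The collagen genes Col1a1 and Col3a1 had unadjusted limma p-values under 0.05 in HFD vs. ND (0.77 and 0.87) and in PRF 50 vs. HFD (-0.46 and -0.43). Of 12 hepatocyte genes, 11 were tested and 0 passed in each comparison, and unadjusted limma p-values were under 0.05 for 3, 2, and 0 genes in HFD vs. ND, PRF 50 vs. HFD, and PRF 50 vs. ND. Apoa1 was the most abundant, and the summed level was 22557 to 33729 FPKM over the 9 livers. Alb was listed at 0 in all 9 livers, so a gene listed at 0 need not be silent. Lymphocyte genes, with at most 1 gene tested, summed to 7.19, 6.65, and 4.12 FPKM in ND mice 6, 7, and 9, 2.16, 2.79, and 2.57 FPKM in HFD mice 1, 2, and 3, and 7.23, 3.94, and 4.37 FPKM in PRF 50 mice 3, 9, and 10, so the HFD livers lay below all others. Cholangiocyte genes summed to 25.6 to 41.5 FPKM per liver with at most 2 tested, and erythroid genes to 109 to 228 FPKM with 4 tested. Of the tested genes in these lists 0 passed by limma. The part of these markers in the result was not tested.

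**Figure D4:**
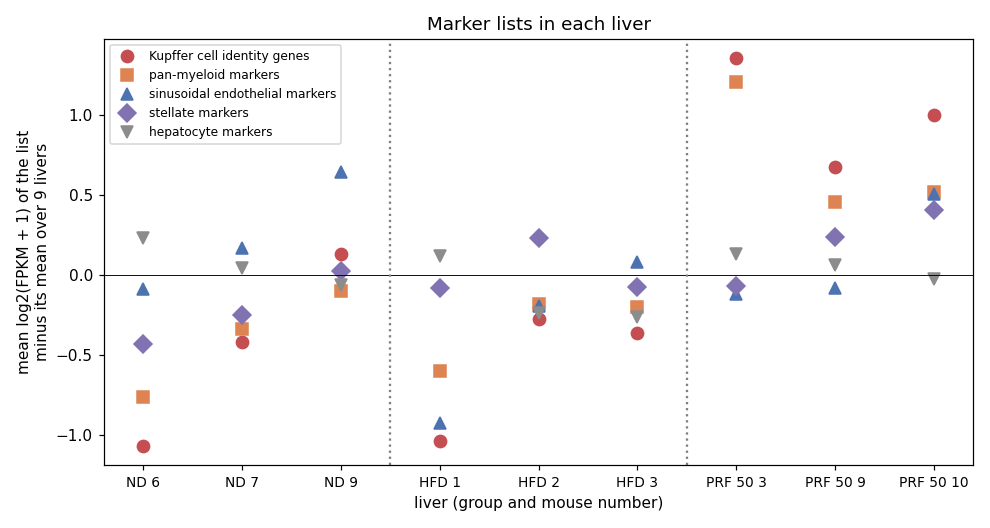
Mean log2(FPKM + 1) of the Kupffer cell genes and of 4 marker lists in each liver, each list shown as the difference from its own mean over the 9 livers. Points are single livers and dotted lines separate the ND, HFD, and PRF 50 groups. Kupffer cell and pan-myeloid genes are high in all 3 PRF 50 livers and low in ND mouse 6 and HFD mouse 1, and sinusoidal endothelial markers are low in HFD mouse 1.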

How the data were processed

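Liver RNA of 9 mice was analysed (ND, HFD, and PRF 50, n = 3 each). The authors selected poly(A) RNA, mapped paired reads with TopHat to mm10, estimated FPKM with Cufflinks, applied a geometric normalization (stated as done with EdgeR), and deposited 1 log2 value per gene symbol and mouse. These were read as log2(FPKM + 1), the pseudocount of 1 being inferred. Tool versions are not given in the sources used here. Genes averaging 1 FPKM or more in the 6 mice compared were tested with limma (version 3.58.1, R version 4.3.3; lmFit, and eBayes with a trend). Called genes had a Benjamini-Hochberg adjusted p under 0.05 over all tested genes. The steps were tested on simulated data. Among genes averaging 1 FPKM or more over the 9 livers, no pair of livers had identical values for more than 0.129% of the genes. The genes and lists were chosen with earlier results of these data known. Genes were named by rule: from each list, up to 2 calls per direction with the largest changes, otherwise the 2 smallest p-values, and the genes most correlated with the Kupffer cell genes. Csf1, some genes behind small counts, and defining markers listed by level were named after their values were seen. Alternatives were another pseudocount, minimum level, normalization, call rule, and variance model, all 9 mice in 1 fit, and each mouse left out.

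Some genes of the marker and regulator lists count in the list totals, but their own values are not reported here.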

Additional observations from a re-analysis of the deposited data

How the results depend on the processing

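No paired analysis was possible because the groups share fewer than 2 mouse numbers and a number marks no shared animal. The log2 fold changes of the Kupffer cell genes in PRF 50 vs. HFD and in PRF 50 vs. ND kept their direction under every alternative that tested them. In HFD vs. ND, where no gene was called, the sign turned in 13 combinations of a gene and a left-out mouse, and the ranges over the 6 fits with 1 mouse left out were -0.50 to 0.21 for Clec4f, -0.14 to 0.56 for Vsig4, -0.25 to 0.35 for Cd5l, -0.17 to 0.38 for Marco, -0.74 to 0.053 for Folr2, -0.42 to 0.47 for Adgre1, and, with no change of sign, -0.76 to -0.07 for Cd163 and -0.50 to -0.17 for Timd4. With 1 mouse left out, the Kupffer cell genes called were 0 to 6 in PRF 50 vs. HFD and 0 to 3 in PRF 50 vs. ND, and all genes called were 35 to 140 in HFD vs. ND, 15 to 242 in PRF 50 vs. HFD, and 4 to 71 in PRF 50 vs. ND. In PRF 50 vs. HFD, the Kupffer cell genes called numbered 3 with no minimum level, 3 of the 4 still tested with a minimum of 10 FPKM, 2 with all 9 mice in 1 fit, and 8 with an unadjusted p under 0.05 and a fold above 2. In PRF 50 vs. ND they numbered 1 with all 9 mice in 1 fit and 7 by unadjusted p and fold. With no minimum level, all genes called numbered 37, 126, and 11 in HFD vs. ND, PRF 50 vs. HFD, and PRF 50 vs. ND. All genes called numbered 102 in PRF 50 vs. ND with all 9 mice in 1 fit, and by unadjusted p and fold they numbered 212 in PRF 50 vs. HFD and 177 in PRF 50 vs. ND. Against 362 in the main fit of PRF 50 vs. HFD, they numbered 252 with a minimum of 10 FPKM and 367 with all 9 mice in 1 fit. Timd4 minus Clec4f in PRF 50 vs. HFD was 0.51 with a pseudocount of 0.1 and 0.57 with none, the latter chosen after seeing the data, and in PRF 50 vs. ND it was 0.11 and 0.15, above 0 where the pseudocount of 1 gave -0.14. With quantile normalization it was 0.0007 in PRF 50 vs. HFD, against 0.10, and -0.24 in PRF 50 vs. ND. Leaving out a mouse leaves fewer mice in the fit, and the minimum level changes which genes are tested. Otherwise the cause was not tested. Absolute depth is unknown, so the counting error of the lowest genes, Cd163 and Timd4, is not known.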
